A study of Mus musculus with 12 samples.

Results

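Immunoglobulin variable (V) segments, the germline genes that encode most of the antigen-binding part of an antibody chain, were followed across RNA libraries of NK cells from mouse spleen. The members were the genes with a symbol beginning Ighv (heavy chain), Igkv (kappa light chain) or Iglv (lambda light chain) and a summed count of at least 100 over the 12 libraries. This rule took 177 of the 50643 listed genes, namely 87 Ighv, 87 Igkv and 3 Iglv segments. It left out 170 other V segments, 73 of them with no count, and the members held 99.5% of all V counts. The segments nearest the limit were Ighv15-2 with 108 counts and Igkv9-129 with 112 on the inside, and Ighv5-2 with 96 and Ighv2-4 with 90 on the outside.

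The libraries came from C57BL/6 mice in 4 groups of 3, which the design text calls biological replicates: wild-type and Mirc11-/- (here knockout), each unchallenged or challenged with Listeria, a bacterium that lives inside host cells. The Mirc11 cluster encodes the microRNAs miR-23a, miR-24-2 and miR-27a. The series asks how Mirc11 shapes inflammatory responses of NK cells, which are innate lymphocytes able to kill infected or altered cells. NK cells were isolated from spleen by negative selection, in which other cells are depleted, so residual B lineage cells can remain. The sources used here do not give age, sex, bacterial dose, route or time after challenge, nor whether a library holds the cells of 1 animal or of a pool, so p-values measure only the spread between these libraries.

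Each developing B cell assembles its own receptor by joining 1 V segment to other short segments at the heavy chain locus and then at a light chain locus, kappa first and lambda as the later choice in the mouse. The V segment carries a promoter that is silent or weak until the joining brings it near an enhancer, so V transcripts come almost wholly from B cells and from plasma cells, the antibody-secreting cells that B cells become. Segment usage therefore describes which receptors the B lineage cells of a sample carry, weighted by how much RNA each cell makes. NK cells do not assemble such receptors. Many V segments are near-copies of each other, grouped into families by similarity, with the family number written first in the symbol (family 1, segment 9 in Ighv1-9).

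The 6 segments on which most of the results below turn are printed here as the last 300 coding bases of their V exon on the coding strand, from the GENCODE vM21 transcripts of GRCm38. Capitals mark the bases after the conserved cysteine codon, which are the germline start of the third complementarity-determining region, where V joining begins. Ighv1-9 lies at chr12:114583569-114584002, Ighv1-53 at chr12:115158403-115158835 and Ighv4-1 at chr12:113948282-113948796, all on the minus strand. Igkv13-84 lies at chr6:68939602-68940067 on the plus strand, and Igkv4-55 at chr6:69607275-69607828 and Igkv5-39 at chr6:69900424-69900977 on the minus strand.
Ighv1-9: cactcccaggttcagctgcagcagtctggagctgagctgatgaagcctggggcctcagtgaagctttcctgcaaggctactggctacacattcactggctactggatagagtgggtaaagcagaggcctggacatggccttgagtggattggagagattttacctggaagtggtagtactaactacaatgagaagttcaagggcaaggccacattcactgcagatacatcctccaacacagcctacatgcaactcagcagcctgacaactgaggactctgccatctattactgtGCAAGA
Ighv1-53: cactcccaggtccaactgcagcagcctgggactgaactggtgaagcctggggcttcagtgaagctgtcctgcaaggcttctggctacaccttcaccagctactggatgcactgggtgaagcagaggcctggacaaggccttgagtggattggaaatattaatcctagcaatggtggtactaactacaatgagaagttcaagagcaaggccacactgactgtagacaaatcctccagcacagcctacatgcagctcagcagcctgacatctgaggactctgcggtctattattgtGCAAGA
Ighv4-1: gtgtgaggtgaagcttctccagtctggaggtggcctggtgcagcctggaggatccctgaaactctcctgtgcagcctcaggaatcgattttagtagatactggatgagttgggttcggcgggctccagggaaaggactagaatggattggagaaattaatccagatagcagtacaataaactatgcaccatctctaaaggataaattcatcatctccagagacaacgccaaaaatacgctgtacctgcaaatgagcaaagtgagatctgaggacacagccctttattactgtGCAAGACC
Igkv13-84: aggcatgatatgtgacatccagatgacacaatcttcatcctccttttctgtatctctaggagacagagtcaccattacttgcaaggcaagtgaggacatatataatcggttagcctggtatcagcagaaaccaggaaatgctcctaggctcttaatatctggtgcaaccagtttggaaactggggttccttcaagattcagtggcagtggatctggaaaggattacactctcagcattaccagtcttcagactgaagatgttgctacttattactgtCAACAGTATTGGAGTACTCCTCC
Igkv4-55: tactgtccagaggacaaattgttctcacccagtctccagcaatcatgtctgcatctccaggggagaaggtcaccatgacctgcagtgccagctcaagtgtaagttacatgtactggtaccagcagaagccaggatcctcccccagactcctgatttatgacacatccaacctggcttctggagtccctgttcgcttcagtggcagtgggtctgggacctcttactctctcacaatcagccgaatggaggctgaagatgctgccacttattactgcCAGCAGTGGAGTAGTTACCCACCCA
Igkv5-39: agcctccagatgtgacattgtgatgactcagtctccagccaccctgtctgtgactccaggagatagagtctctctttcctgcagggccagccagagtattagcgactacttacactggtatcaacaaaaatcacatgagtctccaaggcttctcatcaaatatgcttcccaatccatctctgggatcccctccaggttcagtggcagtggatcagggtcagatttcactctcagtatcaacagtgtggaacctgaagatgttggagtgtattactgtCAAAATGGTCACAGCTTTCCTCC
Ighv1-9 and Ighv1-53 belong to 1 family and end in the same capitals, whereas the kappa segments carry longer ends that differ from each other.

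How far such sequences resemble each other bears on how reads could be assigned. Over the last 250 coding bases the members were a median 94.8% identical to their nearest other V segment, 16 members were at least 98% identical to it, and Ighv1-62-2 was identical to Ighv1-71. Counts of those near-copies are uncertain, because reads shared by copies can be divided between them. Ighv1-9 stood apart at 89.6% identity to its nearest copy, Ighv1-55, Igkv5-39 at 91.6% to Igkv5-45 and Ighv4-1 at 95.2% to Ighv4-2. Igkv4-55 was 96% identical to Igkv4-68, Ighv1-53 96.4% to Ighv1-72 and Igkv13-84 97.6% to Igkv13-85. All 177 members were found in the annotation under the same symbol, with coding lengths of 303 to 394 bases, and all were annotated as genes except the pseudogenes Igkv4-77 and Igkv3-11. The letters TANTANTGN are a pattern of 3 codons that ends in the conserved cysteine codon. They stood on the coding strand within the last 45 coding bases of 136 members (76.8%). Of the 170 V segments below the count limit, 90 had them at their ends (52.9%). Of these 170, 69 Ighv and 58 Igkv segments were annotated as pseudogenes. For any V segment without an annotated coding part, the end of the whole transcript was searched. The 76.8% and 52.9% therefore do not compare like sets. For all other transcripts the last 45 bases of the whole transcript were searched, untranslated sequence included, and 0.777% held the pattern. That 0.777% is therefore not a rate at coding ends. Promoters and recombination signals of the segments were not analysed here.

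Libraries held 17624530 to 23665679 counts, and 1 count was worth 0.0423 to 0.0567 CPM, the count scaled to a fixed total of all counts in a library. The labels could be checked in part. Transcripts of the microRNAs themselves were at 0 counts throughout and check nothing. Gm26532, a noncoding transcript that begins at the end of the cluster, lay at 2.34 to 4.88 CPM in wild-type. In knockout it lay at 0.113 to 0.984 CPM in 5 libraries, but at 2.70 CPM in challenged knockout replicate 3. Gm37352, checked beside it and with more counts, lay at 3.06 to 6.76 CPM in all wild-type libraries. In all knockout libraries it lay at 29.7 to 61.4 CPM, lowest in challenged knockout replicate 3. Unchallenged wild-type replicate 4 carried both Xist, the female-specific transcript, at 1198 CPM and the Y-linked Ddx3y at 34.6 CPM, the other wild-type libraries carried Xist with Ddx3y at 0.133 CPM or less, unchallenged knockout libraries carried Ddx3y with Xist at 1.08 CPM or less, and all challenged knockout libraries carried both. Sex-linked composition cannot be told apart from genotype, nor from challenge within knockout. The same holds for the difference between the challenge responses of the genotypes. The NK markers were present in every library, with a sum over 8 markers of 6028 to 6910 CPM in unchallenged wild-type, 3390 to 3466 after challenge, 6343 to 6546 in unchallenged knockout and 4544 to 5169 after challenge. In challenged wild-type most of that sum was the cytotoxic genes Gzma and Prf1, at means of 1628 and 904 CPM, while the receptor genes fell: Ncr1 from a mean of 820.04 to 193 CPM, Klrb1c from 956 to 147 CPM and Klra8 from 490.4 to 105 CPM. Of the 8 markers, 6 fell and 1 rose there, and all 8 fell in knockout, with medians of -1.83 and -0.46 on the log2 scale. Among all genes tested, 30.9% fell and 32.4% rose in wild-type, and 11.5% fell in knockout. B cell markers were present too, with a sum over 5 markers of 1010 to 1136, 1263 to 1346, 725 to 755 and 1084 to 1137 CPM in the same order, and neither list had a marker at 0. The counts of segments called higher or lower in each comparison are also given without unchallenged wild-type replicate 4 and challenged knockout replicate 3.

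V segment RNA was more abundant after challenge in both genotypes. The members summed to 1155, 1153 and 940 CPM in unchallenged wild-type and to 2159, 2288 and 2148 CPM in challenged wild-type. In knockout they summed to 910, 930 and 983 CPM without challenge and to 1791, 1816 and 1617 CPM after it. The challenged libraries did not overlap the unchallenged ones in either genotype, whereas the unchallenged genotypes overlapped. Means were 1083 ± 123 and 2198 ± 77.9 CPM in wild-type and 941 ± 37.9 and 1741 ± 109 CPM in knockout (SD, n = 3 each).

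Within genotype, the sum was higher after challenge by 958 CPM (two-sided exact permutation p = 0.005, the smallest that 400 arrangements give, 0.030 after Benjamini-Hochberg adjustment over 24 such tests). Within treatment it differed by -299 CPM in knockout (exact permutation p = 0.01, adjusted 0.048), a call lost when unchallenged wild-type replicate 2 or unchallenged knockout replicate 2 or 3 was left out. Each pair of groups on its own cannot go below an exact permutation p of 0.1. In whole-cell-population RNA, more B lineage cells and more antibody RNA per cell cannot be told apart. All 5 B cell markers rose after challenge in both genotypes, with median log2 changes of 0.27 in wild-type and 0.58 in knockout. The median V segment rose by 1.34 and 0.81. Of 15 B cell identity genes, these 5 among them, 9 rose and 3 fell in wild-type, with a median of 0.19. There 32.4% of all genes rose and 30.9% fell, and Fcer2a went from a mean of 113 to 18.4 CPM. In knockout 11 rose and 0 fell, with a median of 0.53, where 15.6% of all genes rose and 11.5% fell. The part of cell number in the V segment change was not tested.

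**Figure D1:**
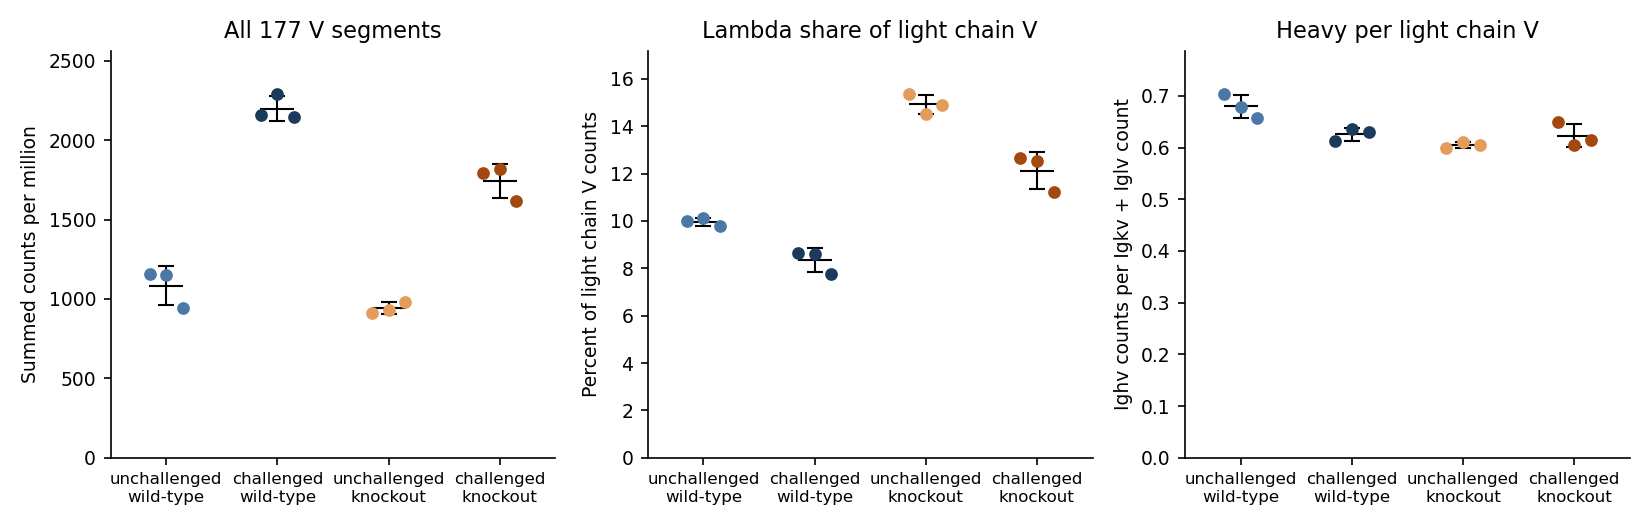
Summed CPM of the 177 V segments, lambda share of light chain V counts in percent, and Ighv counts per light chain V count, with 1 point per library and the mean ± SD of the 3 libraries of each group. The summed level is at least 2148 in every challenged wild-type library and at most 1155 in every unchallenged one, and the lambda share is highest in unchallenged knockout.

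Most segments rose after challenge. The level of each segment was tested with edgeR's quasi-likelihood test on all 16694 genes with sufficient counts, among them all 177 members, and a change was called at an adjusted p (Benjamini-Hochberg over all genes) under 0.05. In wild-type 145 segments were higher and 6 lower after challenge, where 32.4% of all genes tested were higher and 30.9% lower. In knockout 116 were higher and 1 lower, where 15.6% of all genes were higher and 11.5% lower. Their median log2 change was 1.34 in wild-type and 0.81 in knockout, beside medians of -0.0085 and -0.0051 over all genes. Without the 2 libraries named above, 139 were higher and 10 lower in wild-type, and in knockout 114 were higher and edgeR called none lower (0 also at an unadjusted p under 0.05, and 0 by DESeq2 on all libraries).

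Igkv4-55, a kappa segment of the large family 4, had the smallest p in both genotypes. Its level was 18.0, 16.2 and 17.2 CPM in unchallenged and 83.3, 75.002 and 72.7 CPM in challenged wild-type. In knockout it was 6.24, 7.06 and 6.19 CPM without and 52.9, 55.2 and 45.4 CPM after challenge. Every challenged library lay above every unchallenged one, with log2 changes of 2.27 (SE 0.09, edgeR adjusted p = 1.2e-11) in wild-type and 2.96 (SE 0.10, adjusted p = 2.8e-11) in knockout, and the knockout response was larger by 0.69 (adjusted p = 0.00078). Ighv1-53, a family 1 heavy chain segment, rose from 6.06, 9.003 and 7.01 CPM to 30.5, 28.5 and 27.0 CPM in wild-type and from 7.49, 7.51 and 7.53 CPM to 40.4, 38.5 and 33.3 CPM in knockout. Its log2 changes were 2.06 (SE 0.12, edgeR adjusted p = 9.5e-10) and 2.31 (SE 0.12, adjusted p = 2.5e-09), and the responses did not differ past the threshold (0.24, SE 0.17, adjusted p = 0.29). Ighv1-15 rose by 1.22 in wild-type and 2.196 in knockout, and Igkv10-96, the third most used kappa segment, by 1.65 and 1.28.

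Other segments rose mainly in wild-type. Igkv5-39 was at 9.39, 9.36 and 6.76 CPM in unchallenged and at 44.4, 51.4 and 44.7 CPM in challenged wild-type. In knockout it was at 4.94, 4.48 and 4.75 CPM and at 8.37, 8.53 and 7.11 CPM. The challenged wild-type libraries stood far above all others, and the log2 change was 2.57 in wild-type (edgeR adjusted p = 6.6e-11) and 0.75 in knockout (adjusted p = 0.00066), a difference of -1.81 (SE 0.18, adjusted p = 2.0e-06). Igkv4-70 and Igkv8-19 followed the same pattern, with differences of -1.95 and -1.91. Ighv4-1, the only counted member of its family and chosen here after its values were seen, went from 3.33, 2.76 and 1.73 CPM to 32.9, 36.5 and 23.2 CPM in wild-type and from 8.85, 7.15 and 8.76 CPM to 10.8, 13.4 and 16.7 CPM in knockout. Its log2 change of 3.67 in wild-type was the largest of the 177, against 0.71 in knockout, with a difference of -2.96 (SE 0.33, edgeR adjusted p = 1.4e-05).

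Of the 6 segments that fell after challenge in wild-type, Igkv13-84 fell most. Its level was 60.6, 59.4 and 43.8 CPM in unchallenged wild-type, 4.42, 4.84 and 4.79 CPM after challenge, 2.04, 1.76 and 2.82 CPM in knockout without challenge and 2.92, 5.81 and 4.74 CPM after challenge. Only the unchallenged wild-type libraries were high, and the other 9 stayed under 6 CPM. The log2 change was -3.44 in wild-type (SE 0.20, edgeR adjusted p = 2.0e-09) and 1.004 in knockout (SE 0.25, adjusted p = 0.0081). Ighv1-9 was at 91.9, 89.1 and 58.0 CPM in unchallenged wild-type, at 29.3, 29.1 and 29.0 CPM after challenge, at 4.09, 4.16 and 4.80 CPM in unchallenged knockout and at 11.3, 11.6 and 14.3 CPM after challenge. The 4 groups did not overlap, and the log2 change was -1.35 in wild-type (SE 0.14, edgeR adjusted p = 1.2e-06) and 1.499 in knockout (SE 0.18, adjusted p = 2.8e-05). Igkv1-122 fell by 0.99 and Ighv1-4 by 0.89 in wild-type. In knockout the single segment called lower was Ighv15-2, the least counted member, at under 1 CPM in every library, with a log2 change of -1.09 (SE 0.38, edgeR adjusted p = 0.045). That call was lost when any single library other than challenged wild-type replicate 1 or 3 was left out.

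Challenge responses differed between the genotypes for many segments. The difference was higher in knockout for 26 and lower for 71, where 16.7% of all genes were higher and 18.5% lower. The median difference over the members was -0.49 on the log2 scale, beside 0.0039 over all genes. Without the 2 libraries named above, 25 were higher and 57 lower. Igkv13-84 (4.44) and Ighv1-9 (2.85) had the largest differences upwards, and Ighv1-81 (1.42) and Igkv6-23 (1.09) came next by p.

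Between the genotypes the segments went in both directions. Without challenge 50 were higher and 44 lower in knockout, where 6.64% of all genes tested were higher and 5.07% lower, and without the 2 libraries named above 36 were higher and 44 lower. After challenge 16 were higher and 79 lower, where 22.7% of all genes were higher and 25.9% lower, and without those libraries 23 were higher and 71 lower. The median log2 difference over the members was 0.21 without and -0.37 after challenge, beside -0.0075 and -0.0024 over all genes. These counts share groups with those of the challenge comparisons above.

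In unchallenged knockout the lower segments included those that led in unchallenged wild-type, Ighv1-9 (log2 difference -4.17, SE 0.17, edgeR adjusted p = 3.1e-09) and Igkv13-84 (-4.61, SE 0.22, adjusted p = 1.2e-08). Igkv6-23 was at 36.9, 38.9 and 30.3 CPM in unchallenged wild-type and at 7.94, 7.92 and 9.66 CPM in unchallenged knockout, and Ighv8-8 at 18.3, 19.1 and 15.2 CPM against 3.63, 3.89 and 4.16 CPM. Both sets of libraries were apart by more than their spread, with log2 differences of -2.04 and -2.15. Among higher segments, Igkv4-86 was at 2.46, 3.27 and 1.93 CPM in wild-type and at 11.2, 9.18 and 10.5 CPM in knockout, a log2 difference of 2.03 (SE 0.17, edgeR adjusted p = 1.4e-06). Igkv4-57, Igkv8-27 and Igkv8-30 were higher by 1.78, 1.35 and 1.43. After challenge, Igkv5-39 (-2.64) and Igkv4-70 (-2.16) had the smallest p among lower segments and Ighv2-6 (1.096) and Ighv5-6 (0.97) among higher ones.

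Usage, the share of a segment among all member counts of its own locus in a library, removes the total amount of V RNA. By mean over the 12 libraries, Ighv1-9 (6.13%), Ighv1-55 (4.97%), Ighv1-26 (4.88%), Ighv1-72 (3.69%), Ighv1-34 (3.35%) and Ighv1-82 (3.29%) led the heavy chain. Igkv1-117 (6.34%), Igkv1-110 (5.68%), Igkv10-96 (5.03%), Igkv4-55 (3.98%), Igkv1-135 (3.84%) and Igkv6-23 (3.40%) led kappa. The same 6 segments led each locus when counts were divided by coding length. Among lambda segments, Iglv1 held 65.6% to 72.7% in every library.

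Heavy chain usage was dominated by 1 segment in unchallenged wild-type. Ighv1-9 held 19.3%, 19.1% and 15.5% of Ighv counts there, 3.58%, 3.27% and 3.49% after challenge, and in knockout 1.20%, 1.18% and 1.296% without and 1.60%, 1.70% and 2.33% after challenge. It ranked first of 87 in unchallenged wild-type and 6, 28 and 17 in the other groups. Its usage differed by -3.87 on the log2 scale between unchallenged knockout and wild-type (SE 0.14, adjusted p = 4.4e-10 by edgeR with the V counts of the locus in place of library size) and by -2.38 after challenge in wild-type (SE 0.12, adjusted p = 1.4e-10). In the other 3 groups the most used heavy chain segment of a library was Ighv1-26, Ighv1-55 or Ighv1-53 and held 5.26% to 5.89%. Ighv1-26 held 3.71% to 4.41% in unchallenged wild-type and 4.24% to 5.73% elsewhere.

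Kappa usage also had a leading segment in unchallenged wild-type, but the size of its share did not set that group apart. The most used kappa segment of a library held 8.57% to 9.92% there and 8.70% to 9.23% in unchallenged knockout. After challenge it held 5.86% to 6.81% in wild-type and 7.15% to 8.75% in knockout. Igkv13-84 held 9.92%, 9.63% and 8.57% of Igkv counts in unchallenged and 0.36%, 0.38% and 0.39% in challenged wild-type, and 0.42%, 0.36% and 0.54% in unchallenged and 0.31%, 0.59% and 0.53% in challenged knockout. All 3 unchallenged wild-type libraries stood far above the other 9, and usage fell by 4.63 on the log2 scale after challenge in wild-type (SE 0.18, edgeR adjusted p = 9.4e-12). Its nearest copy, Igkv13-85, held 0.492%, 0.630% and 0.457% in unchallenged wild-type and 0.233% to 1.13% elsewhere. Usage of Igkv4-55 went from 2.95%, 2.63% and 3.37% to 6.81%, 5.86% and 5.98% in wild-type and from 1.295%, 1.43% and 1.19% to 5.57%, 5.58% and 5.10% in knockout, rises of 1.06 and 2.05 (edgeR adjusted p = 1.2e-07 and 2.4e-09). Igkv1-117, the most used kappa segment in each unchallenged knockout library, held 8.70%, 9.23% and 8.88% in unchallenged knockout against 4.55%, 3.95% and 4.60% in unchallenged wild-type. The most used kappa segment was Igkv4-55 in each challenged wild-type library and Igkv1-110 or Igkv1-117 in challenged knockout.

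**Figure D2:**
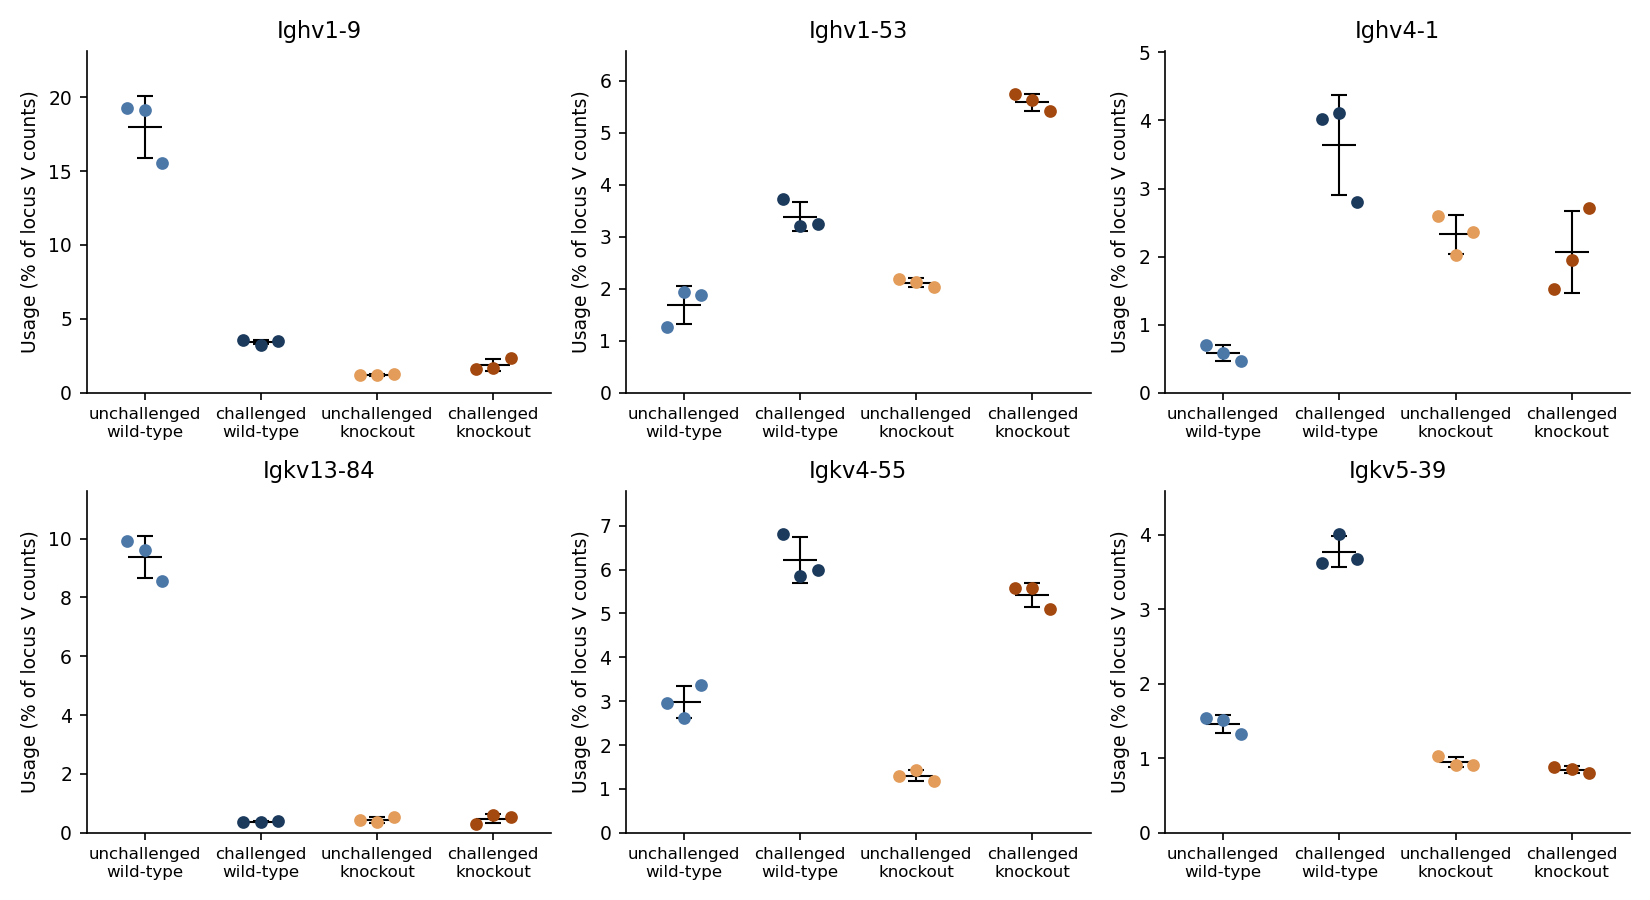
Usage of 6 V segments in percent of the member counts of their locus, with 1 point per library and the mean ± SD of the 3 libraries of each group, each panel on its own scale from 0. Ighv1-9 and Igkv13-84 are high only in unchallenged wild-type, Ighv1-53 and Igkv4-55 are higher after challenge in both genotypes, and Ighv4-1 and Igkv5-39 are highest in challenged wild-type.

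Usage calls were made in each comparison. After challenge the usage of 66 segments was higher and of 31 lower in wild-type (63% of all genes were called in the same fit, in which genes other than V segments keep their level), and of 30 higher and 37 lower in knockout (26.7% of all genes). Between genotypes it was higher in knockout for 74 and lower for 38 without challenge (11.9% of all genes) and higher for 56 and lower for 41 after it (48.7% of all genes). The change with challenge differed between genotypes upwards for 31 and downwards for 55 (35.1% of all genes). The share of segments called was below that of all genes after challenge in wild-type and near it between the challenged genotypes, so those counts do not set the segments apart. It was furthest above that of all genes between the unchallenged genotypes. Without the 2 libraries named above, these pairs of counts were 63 and 28, 25 and 29, 67 and 36, 53 and 40, and 27 and 52. A share must fall elsewhere when 1 segment takes much of a locus: with Ighv1-9 and Igkv13-84 left out of the locus sums, 49 were higher and 45 lower after challenge in wild-type, and 53 higher and 44 lower in unchallenged knockout. Of the 177 segments, 22 had no called usage change in any of the 4 pairwise comparisons and 20 had one in all of them.

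Among the segments with the smallest p, usage of Igkv4-70 and Igkv8-19 rose by 1.48 and 1.25 on the log2 scale after challenge in wild-type, and usage of Ighv1-81 and Igkv1-122 fell by 1.49 and 2.18. In knockout, usage of Ighv1-53, Ighv1-15 and Ighv8-12 rose by 1.40, 1.297 and 0.82, and usage of Igkv6-32, Igkv4-86 and Igkv4-50 fell by 0.75, 1.05 and 1.299. Ighv1-53 held 1.27%, 1.93% and 1.88% of Ighv counts in unchallenged and 3.72%, 3.20% and 3.25% in challenged wild-type, and 2.197%, 2.13% and 2.03% against 5.74%, 5.62% and 5.41% in knockout, where it was the most used heavy chain segment in 2 of the 3 challenged libraries and the next most used in the other. Igkv1-110 was used more in knockout than in wild-type after challenge (log2 difference 0.90, SE 0.08, edgeR adjusted p = 3.0e-07), and Ighv1-50 less (-1.05, adjusted p = 4.4e-07).

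The ratio of the highest to the lowest group mean of usage had a median of 2.47 over Ighv and 2.10 over Igkv segments. It was at least 2 for 57 of 87 Ighv and 51 of 87 Igkv segments, and for 0 of 3 Iglv segments. The extremes were Igkv13-84 at 24.8 and Ighv1-9 at 14.7, and the least changed were Ighv1-7 at 1.18 and Igkv17-127 at 1.25. Unchallenged wild-type had the lowest mean usage of the 4 groups for 42 Ighv and 35 Igkv segments, and unchallenged knockout the highest for 34 and 31. These are counts of group means, with no test.

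No member's level came mostly from 1 library. The largest part of a member's CPM, summed over the libraries, that 1 library held was 33.4%, for Ighv5-15, where 12 equal libraries would hold 8.33% each. Ighv5-15 held 0.18%, 0.16% and 0.19% of Ighv counts in unchallenged wild-type, 0.42%, 0.57% and 0.33% in challenged wild-type and 0.07% or less in every knockout library. Its usage differed by -3.002 on the log2 scale between challenged knockout and wild-type (SE 0.29, edgeR adjusted p = 5.6e-07). Ighv9-2, Ighv12-3, Igkv13-84, Igkv1-99, Ighv9-4, Igkv5-39 and Igkv8-18 came next in that order.

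Evenness was read from the effective number of segments, the number of equally used segments that would give the same Shannon entropy. For Ighv it was 40.7, 40.1 and 43.9 in unchallenged and 54.0, 53.9 and 53.4 in challenged wild-type, and 59.4, 59.2 and 58.8 in unchallenged and 56.5, 56.1 and 57.4 in challenged knockout. No groups overlapped, and unchallenged wild-type was the least even, at 41.6 ± 2.06 against 53.8 ± 0.31, 59.1 ± 0.29 and 56.6 ± 0.67 (SD, n = 3 each). Within treatment, knockout was higher by 10.2 (two-sided exact permutation p = 0.005, adjusted 0.030). Within genotype, challenge gave a mean rise of 4.84 (exact permutation p = 0.1, adjusted 0.11), made of a difference of 12.2 in wild-type and of -2.51 in knockout. Each pairwise difference had the smallest exact p that 3 against 3 libraries allow, 0.1.

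Much of the heavy chain difference lay in 1 segment. With the most used segment of each library left out, the difference after challenge in wild-type was 1.16 and that between unchallenged knockout and wild-type 6.85, in place of 12.2 and 17.6, and the knockout difference within treatment was 4.99. The 10 most used Ighv segments held 47.7% to 49.8% of counts in unchallenged wild-type and 35.4% to 39.4% elsewhere. It took 11 segments to reach 50% of Ighv counts in each unchallenged wild-type library, 14 or 15 after challenge, and in knockout 17 without and 16 or 17 after challenge. All 87 Ighv and 87 Igkv members had counts in every library, which the count limit of the rule makes likely.

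For Igkv the effective number was 46.1, 47.7 and 49.2 in unchallenged and 51.5, 53.1 and 53.8 in challenged wild-type, and 51.2, 51.6 and 52.4 in unchallenged and 50.5, 50.2 and 47.7 in challenged knockout. Means were 47.7 ± 1.56, 52.8 ± 1.21, 51.7 ± 0.61 and 49.5 ± 1.56 (SD, n = 3 each). The difference after challenge was 5.12 in wild-type and -2.25 in knockout, each without overlap between its groups (exact permutation p = 0.1, the smallest possible), and -1.36 in knockout without challenged knockout replicate 3. Pooled within genotype or within treatment, the differences were 1.44 (exact permutation p = 0.335, adjusted 0.35) and 0.359 (p = 0.81, adjusted 0.81).

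**Figure D3:**
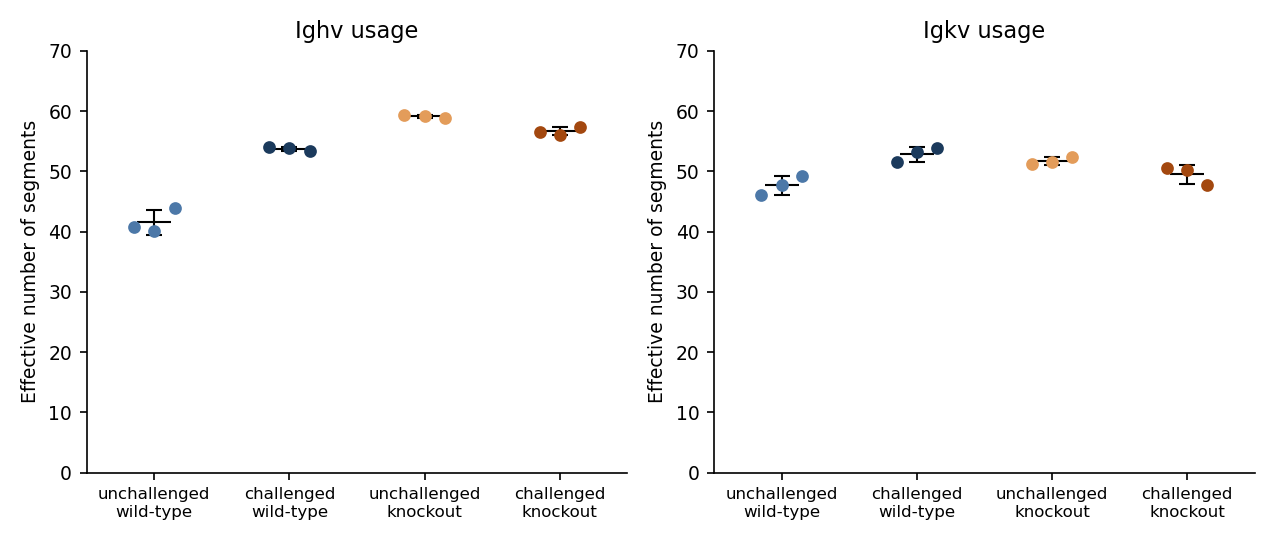
Effective number of segments (exponential of the Shannon entropy of member counts) for Ighv and Igkv, with 1 point per library and the mean ± SD of the 3 libraries of each group, both axes from 0. Unchallenged wild-type is lowest for Ighv, at 40.1 to 43.9, and for Igkv its libraries, at 46.1 to 49.2, overlap challenged knockout, at 47.7 to 50.5.

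**Figure D4:**
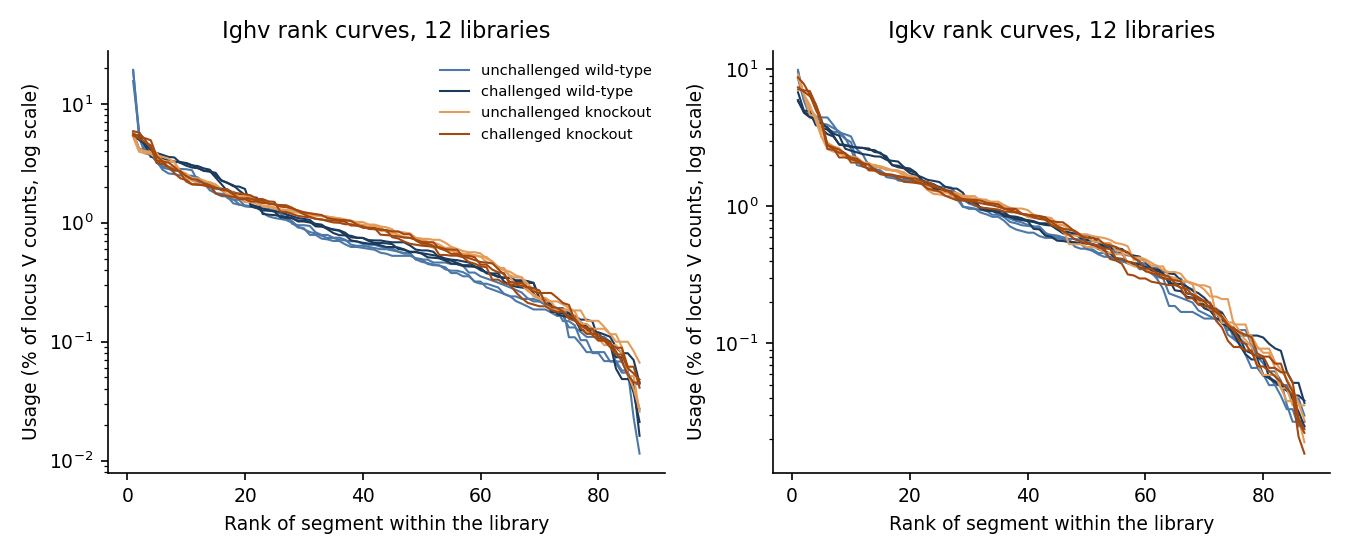
Usage in percent of locus counts on a log scale against the rank of the segment within its library, 1 line per library, coloured by group. The Ighv lines of unchallenged wild-type start at 15.5% to 19.3% and then run under those of the other groups through the middle ranks.

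Libraries of 1 group had nearly the same usage. The overlap of 2 profiles, the sum over segments of the smaller of both shares, was 91.0% to 94.6% for Ighv and 92.7% to 95.9% for Igkv over the 12 pairs within groups. Over the 54 pairs between groups it was 67.5% to 85.5% and 66.4% to 86.3%, so no pair between groups reached the lowest pair within one. Lowest were unchallenged wild-type against unchallenged knockout, at 67.5% to 72.2% and 66.4% to 70.3%, and highest the unchallenged and challenged knockout, at 83.8% to 85.5% and 83.9% to 86.3%.

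Against counting noise, the chi-square of 2 libraries per degree of freedom, which is 1 when they differ by counting noise alone, was 1.09 to 4.21 for Ighv and 1.125 to 4.82 for Igkv within groups. In unchallenged knockout it was 1.09 to 1.23 for Ighv and 1.302 to 1.55 for Igkv, close to counting noise. Between groups it was 7.44 to 48.7 and 10.6 to 56.2. For comparison, 2870 other genes in the central part of the members' count range gave 1.71 to 5.54 within and 6.82 to 39.05 between groups. The Ighv and Igkv ratios cover all members, also those with more or fewer counts. For a given fold difference the ratio grows with counts, so these ranges are not on the same scale. Between the unchallenged genotypes those genes gave 6.82 to 9.27, where Ighv gave 20.7 to 30.7 and Igkv 27.6 to 40.1. For challenge in wild-type they gave 35.3 to 38.4, where Ighv gave 26.2 to 42.03 and Igkv 39.4 to 56.2. For challenge in knockout they gave 7.75 to 11.6, where Ighv gave 7.44 to 8.55 and Igkv 10.6 to 15.05. Between the challenged genotypes they gave 19.5 to 24.9, where Ighv gave 16.8 to 27.9 and Igkv 25.4 to 32.3. The Ighv range lay above that of the 2870 genes only between the unchallenged genotypes, among these 4 comparisons, and overlapped it in the others. The Igkv range lay above that of those genes in each of these comparisons except challenge in knockout, where the ranges overlapped. The unlike counts were not allowed for. Over all 16069 other genes with the same count limit the ratio within groups was 3.34 to 26.9. No 2 libraries were thus the same to within counting noise over those genes, which does not extend to V segment usage.

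**Figure D5:**
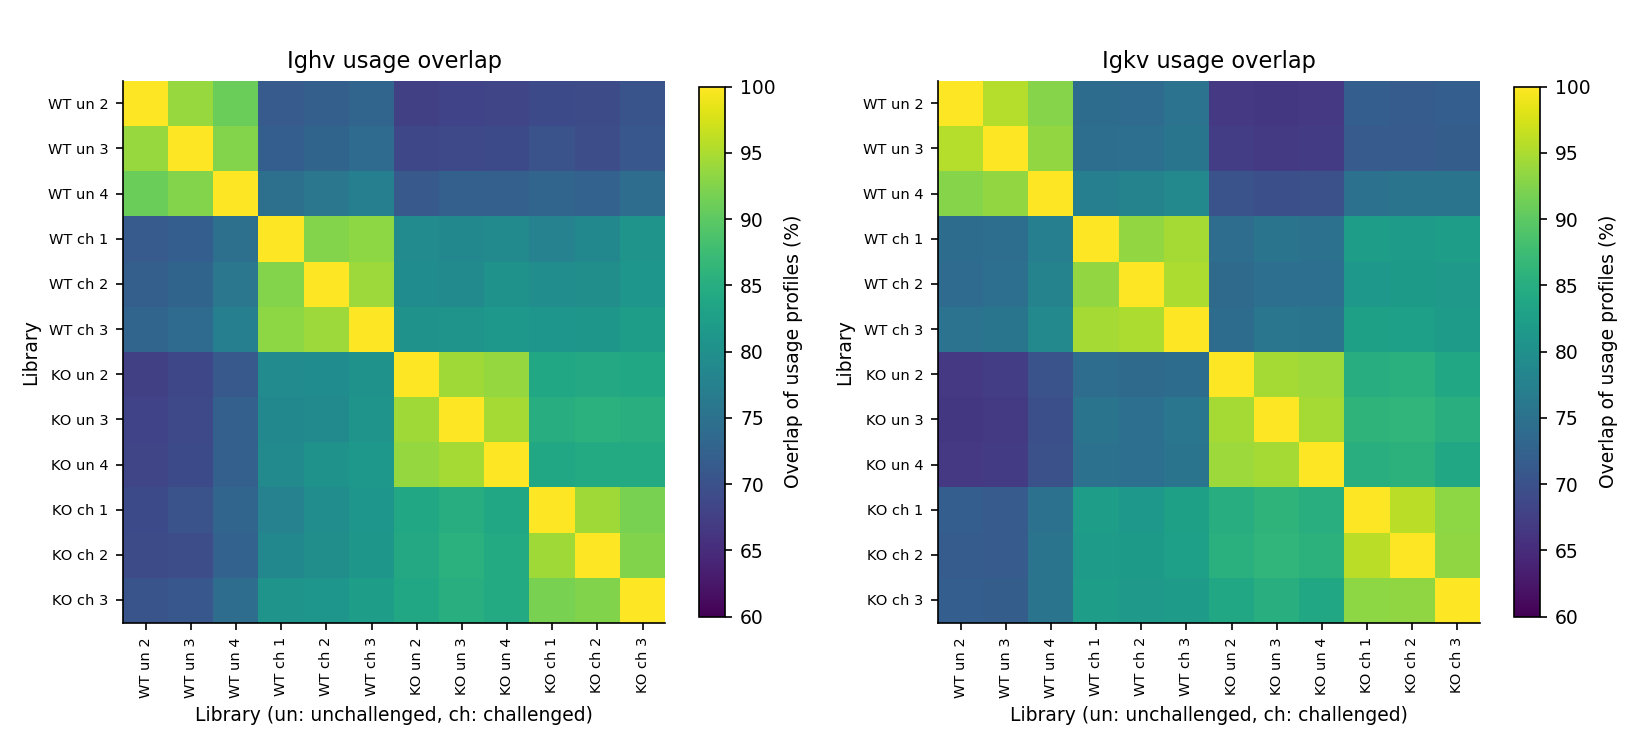
Overlap of Ighv and of Igkv usage profiles in percent for all pairs of the 12 libraries (WT wild-type, KO knockout, un unchallenged, ch challenged, with the replicate number). The 4 blocks of 3 libraries on the diagonal are at 91.0% or more, and the highest values between groups are those within knockout, at 83.8% to 86.3%.

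By family, the 42 Ighv1 segments held the largest part of heavy chain usage, at 69.9% ± 0.76 in unchallenged and 60.9% ± 0.96 in challenged wild-type, and 56.6% ± 0.80 in unchallenged and 60.3% ± 0.29 in challenged knockout (SD, n = 3 each). The 7 Ighv2 segments held 3.40% ± 0.48, 5.13% ± 0.42, 8.24% ± 0.23 and 6.45% ± 0.82 in the same order, and Ighv4-1 alone 0.585% ± 0.118, 3.64% ± 0.73, 2.33% ± 0.29 and 2.07% ± 0.60. Ighv8 moved the other way, at 6.57% ± 0.16, 4.21% ± 0.10, 3.23% ± 0.19 and 4.14% ± 0.12. The Ighv1 share includes Ighv1-9, which alone held 15.5% to 19.3% of Ighv counts in unchallenged wild-type. Family shares were not computed without it. Among kappa families, the 23 Igkv4 segments held 16.7% ± 0.13, 21.2% ± 0.59, 16.8% ± 0.55 and 17.8% ± 0.42. Igkv1 held 14.5% ± 0.38 and 13.8% ± 0.35 in wild-type and 21.2% ± 0.13 and 20.2% ± 1.23 in knockout, so no wild-type library reached a knockout one. Igkv8 held 4.91% ± 0.38, 7.44% ± 0.42, 9.81% ± 0.45 and 9.35% ± 0.55. The 2 Igkv13 segments held 9.90% ± 0.76 in unchallenged wild-type and 0.644% ± 0.061, 1.38% ± 0.25 and 0.916% ± 0.130 elsewhere.

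Along the heavy chain locus, members were divided by position into 4 blocks of 21 or 22. The block at chr12:113588267-114060321, nearest the constant region genes, held 12.7% ± 0.31 of Ighv usage in unchallenged and 20.1% ± 0.51 in challenged wild-type, and 24.6% ± 0.82 in unchallenged and 20.7% ± 0.59 in challenged knockout (SD, n = 3 each). The next block, chr12:114093928-114584002, which includes Ighv1-9, held 32.2% ± 2.23, 20.5% ± 1.18, 19.1% ± 0.20 and 18.6% ± 1.01. At the kappa locus the block at chr6:67555497-68542422 held 26.3% ± 0.82 and 27.7% ± 0.45 in wild-type and 37.5% ± 0.51 and 34.7% ± 0.997 in knockout, and it contains Igkv1-117 and Igkv1-110.

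Lambda segments are the smallest group. Iglv counts made up 10.005%, 10.1% and 9.77% of light chain V counts in unchallenged and 8.66%, 8.60% and 7.75% in challenged wild-type, and 15.3%, 14.5% and 14.9% in unchallenged and 12.6%, 12.5% and 11.2% in challenged knockout. No groups overlapped. Within treatment the share was higher in knockout by 4.38 percentage points, and within genotype lower after challenge by 2.21 points (two-sided exact permutation p = 0.005 for each, adjusted 0.030). Within the locus, Iglv2 held 13.2%, 16.2% and 17.3% in unchallenged wild-type and 21.9%, 21.9% and 22.5% in unchallenged knockout, and Iglv3 held 17.6%, 15.5% and 17.05% against 9.48%, 9.11% and 7.82%. Usage of Iglv2 was higher and of Iglv3 lower in knockout, by 0.51 and -0.93 on the log2 scale (edgeR adjusted p = 0.0035 and 2.1e-05). Heavy chain counts per light chain V count were 0.658 to 0.703 in unchallenged wild-type and 0.599 to 0.649 elsewhere.

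Constant region genes, which follow the V segment in the same transcripts, moved with the V segments after challenge. All 12 tested members of a list of 13 rose in both genotypes, with median log2 changes of 0.69 and 0.84, against 1.34 and 0.81 for V segments. Among all genes 32.4% rose in wild-type and 15.6% in knockout. Ighm, the constant region of IgM, made up 80.5% ± 0.38 of heavy chain constant counts in unchallenged and 81.8% ± 0.54 in challenged wild-type, and 72.8% ± 0.54 in unchallenged and 64.5% ± 2.67 in challenged knockout (SD, n = 3 each). Igha, that of IgA, was at 35.8, 36.3 and 40.6 CPM in unchallenged wild-type, 183, 187 and 249 CPM after challenge, 264, 282 and 305 CPM in unchallenged knockout and 763, 590 and 870 CPM after challenge. Its log2 difference between the unchallenged genotypes was 2.93 (SE 0.16, edgeR adjusted p = 2.3e-07), where the median V segment differed by 0.21. Of the 12 constant region genes, 2 were higher and 6 lower in that comparison, with a median of -0.28 and Ighm at -0.60. There 6.64% of all genes were higher and 5.07% lower.

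Of 11 plasma cell and secretion genes, 5 rose and 3 fell after challenge in wild-type and 9 rose and 1 fell in knockout, where 32.4% and 30.9% of all genes rose and fell in wild-type and 15.6% and 11.5% in knockout. The plasma cell marker sum, over 5 genes with none at 0, was 267 to 335, 267 to 337, 278 to 310 and 348 to 439 CPM in the order of the groups. Jchain, which links antibody units in IgM and IgA, had log2 changes of 0.32 in wild-type (edgeR adjusted p = 0.054) and 0.58 in knockout (adjusted p = 0.0065). Of 15 B cell identity genes, 13 were lower and 0 higher in unchallenged knockout than in unchallenged wild-type, with a median of -0.54. In that comparison 50 V segments were higher and 44 lower, and 6.64% of all genes were higher and 5.07% lower. Of the recombination and surrogate light chain genes, 3 of 7 had enough counts to test: Dntt and Vpreb3 fell after challenge in wild-type, by 2.65 and 0.72, as did Rag1, by 1.89, where 30.9% of all genes fell. In knockout none of these passed the test by edgeR, with log2 changes of -0.047 for Dntt, 0.33 for Vpreb3 and 1.33 for Rag1 (adjusted p = 0.90, 0.16 and 0.20). The response was higher in knockout for all 3, where that of 16.7% of all genes was higher. Neutrophil marker sums also differed, at 29.7 to 33.3, 1113 to 1335, 231 to 233 and 501 to 827 CPM, and erythroid sums at 7213 to 8387, 1117 to 1511, 22862 to 25459 and 12629 to 15278 CPM. Their part in the V segment results was not tested.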

How the data were processed

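The deposited table holds whole-number read counts for 50643 genes in 12 libraries of polyadenylated RNA. Per the submitters' processing notes the tools were bcl2fastq, Trim Galore 0.4.1, Bowtie2 2.2.8 and RSEM 1.3.0, with the build GRCm38. The sources used here do not give the annotation release, strand setting or any rounding of the counts, and each affects how reads of near-identical segments were divided.

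Members were taken by symbol and a summed count of at least 100. CPM is the count divided by the total of its library and scaled to 1e6. Levels were tested with edgeR 4.0.16 (robust quasi-likelihood fit, filterByExpr, TMM scaling, 1 model of 4 groups) on 16694 genes, and p-values were adjusted over all of them. Usage was tested in the same model with the log of the summed member counts of the locus as offset for V segments. The effective number, summed level and lambda share were compared by exact permutation tests of libraries, within the other factor where pooled, and adjusted over 24 tests. Coding sequences came from GENCODE vM21, and identity was computed with edlib 1.3.9.post1. The fits were tested on simulated data.

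The text names the most used segments of each locus, up to 4 segments in each direction with the smallest adjusted p in each comparison, and those with the largest part of their level in 1 library. Members, gene lists and tests were chosen with earlier results of these data known. Alternatives were RLE and upper-quartile scaling, no count filter, separate fits of 6 libraries, replicate blocks, single libraries left out, DESeq2 1.42.0, other evenness measures and other count limits. Chosen after seeing the data were the removal of 2 libraries together and of 2 segments from the locus sums.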

Additional observations from a re-analysis of the deposited data

Results flagged for a closer look

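The response of V segments to challenge differed between the genotypes by the interaction term of the edgeR model. The level response was higher in knockout for 26 segments and lower for 71, where 16.7% of all genes were higher and 18.5% lower. The share of segments with a higher level response was near that of all genes, so that count does not set them apart. The usage response was higher for 31 and lower for 55, where 35.1% of all genes were called in either direction.

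By level, the difference on the log2 scale was 4.44 for Igkv13-84, 2.85 for Ighv1-9, 1.42 for Ighv1-81 and 1.09 for Igkv6-23. It was -1.91 for Igkv8-19, -1.95 for Igkv4-70, -1.81 for Igkv5-39 and -1.93 for Igkv4-57. By usage, it was 4.73 for Igkv13-84, 2.99 for Ighv1-9, 1.38 for Igkv6-23 and 1.57 for Ighv1-81, and -1.52 for Igkv5-39, -1.62 for Igkv8-19, -1.66 for Igkv4-70 and -1.64 for Igkv4-57. For these 8 segments level and usage gave the same sign.

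The effective number of segments differed after challenge in opposite directions in the genotypes, without overlap between challenged and unchallenged libraries of a genotype. For Ighv it changed by 12.2 after challenge in wild-type and by -2.51 in knockout, and for Igkv by 5.12 and -2.25. The difference between these changes was not tested.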

How the results depend on the processing

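Of 1372 values of single segments under other settings, 1357 kept their direction and their side of the threshold and 15, all of Ighv15-2 after challenge in knockout, did not pass it. Of 652 other values, 620 were labelled the same. For counts of called segments this meant equal to the main count or within a set ratio of it. For the values compared by permutation it meant the same direction and side of the threshold. The cause of the changes below was not tested. The 6 segments lower after challenge in wild-type became 10 with upper-quartile scaling, which moved the median of all genes to -0.116, and 10 with the 2 libraries left out, and were 6 to 9 with single libraries left out. The 1 segment lower in knockout became 0 with no count filter, with either replicate block, with the 2 libraries left out and with DESeq2, and 0 to 1 with single libraries left out. At an unadjusted p under 0.05, the 15 edgeR and DESeq2 settings with 0 had 0 to 2.

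Replicate numbers did not pair the libraries, which share only a number: deviations of same-numbered libraries correlated at -0.317 to 0.249. With the first number in the title as replicate block, the 37 segments with lower usage after challenge in knockout became 22, 141 segments were higher and 7 lower after challenge in wild-type, and 101 were higher in knockout.

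The number of Ighv segments seen at the smallest depth differed by -0.102 after challenge in wild-type and by -0.0669 after challenge within genotype. In knockout within treatment it differed by 0.166. For Igkv the same measure gave -0.0543, -0.114 and -0.0394. It counts segments and does not measure their evenness. All 87 members of each of these loci had counts in every library, so it had little room to differ. Without the most used segment, the difference in effective number after challenge within genotype was -0.707 for Ighv and -0.244 for Igkv. The Igkv difference of knockout within treatment was -1.83 by the inverse Simpson index, -0.116 over segments with at least 500 counts and -0.0367 to 0.806 with single libraries left out, the lowest without unchallenged wild-type replicate 2. The summed level in knockout within treatment ranged from -335 to -268 CPM with single libraries left out, and was -281 without unchallenged wild-type replicate 2, -292 without unchallenged knockout replicate 2 and -297 without unchallenged knockout replicate 3.

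Libraries held 16042 to 51496 V counts, so shares of rare segments carry the most counting error. Division of reads between near-copies was not tested.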
